A study of Mus musculus with 10 samples.

Results

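Mouse erythroleukemia (MEL) subclones with a high signal for Bcl11a were compared with subclones with a low signal. The groups were chosen by the measured intensity of 1 of the 7 Bcl11a probe sets on the array, and by no other value. Lines with a mean intensity over 150 on it, FBB1.10 and FBB1.11, formed the high group, and lines with a mean under 100, FBB1.5 and FBB1.7, the low group. This took in 8 of the 10 arrays of the study and 4 of its 5 lines. MEL cells are virus-transformed red cell precursors of the mouse that grow in culture. Every line carried the bacterial biotin ligase BirA, the parental line included, and the 4 subclones also stably expressed BCL11A fused to a FLAG and a biotin-acceptor tag. Each subclone was measured on 2 Affymetrix arrays, so each group held 4 arrays of 2 clones. The promoter of the construct and the level of BCL11A protein are not given in the sources used here. The labels do not say whether paired arrays come from separate cultures, so the p-values measure only the spread between arrays, which may be technical.

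BCL11A is a zinc finger transcription factor best known for silencing embryonic and fetal globin genes in red cell precursors. It represses together with chromatin complexes such as NuRD and recognises the short sequence TGACCA. Among the other proteins named here, INSIG1 of the endoplasmic reticulum holds back the factors that switch on the genes of sterol synthesis.

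On the probe set that chose the groups, FBB1.10 read 232.6 and 164.5 and FBB1.11 read 245.4 and 180.7, in linear intensity units. FBB1.5 read 62.1 and 95.8, FBB1.7 read 62.4 and 65.0, and the parental arrays 39.7 and 35.9. The line means just inside the thresholds were 199 ± 48.2 (SD, n = 2) for FBB1.10 and 79.0 ± 23.9 (SD, n = 2) for FBB1.5, and no line lay between them. These values made the groups and carry no test.

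The other 6 Bcl11a probe sets separated the groups far less. Their differences, high minus low as log2(intensity + 16), ran from -0.11 to 0.24, against 1.34 for the probe set that made the groups. On 1 of the 6 the high arrays read 294.8 to 346.8 and the low arrays 233.7 to 286.4, without overlap. On another the line means were 298.3 in FBB1.10, 377 in FBB1.11, 353.8 in FBB1.5 and 232.6 in FBB1.7, so the lines differed within both groups. On a further pair the high group lay slightly lower, by -0.072 and -0.11. The sources used here do not say which probe sets read the introduced transcript and which only the cell's own. The high and low labels therefore describe 1 probe set, not the amount of BCL11A.

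**Figure D1:**
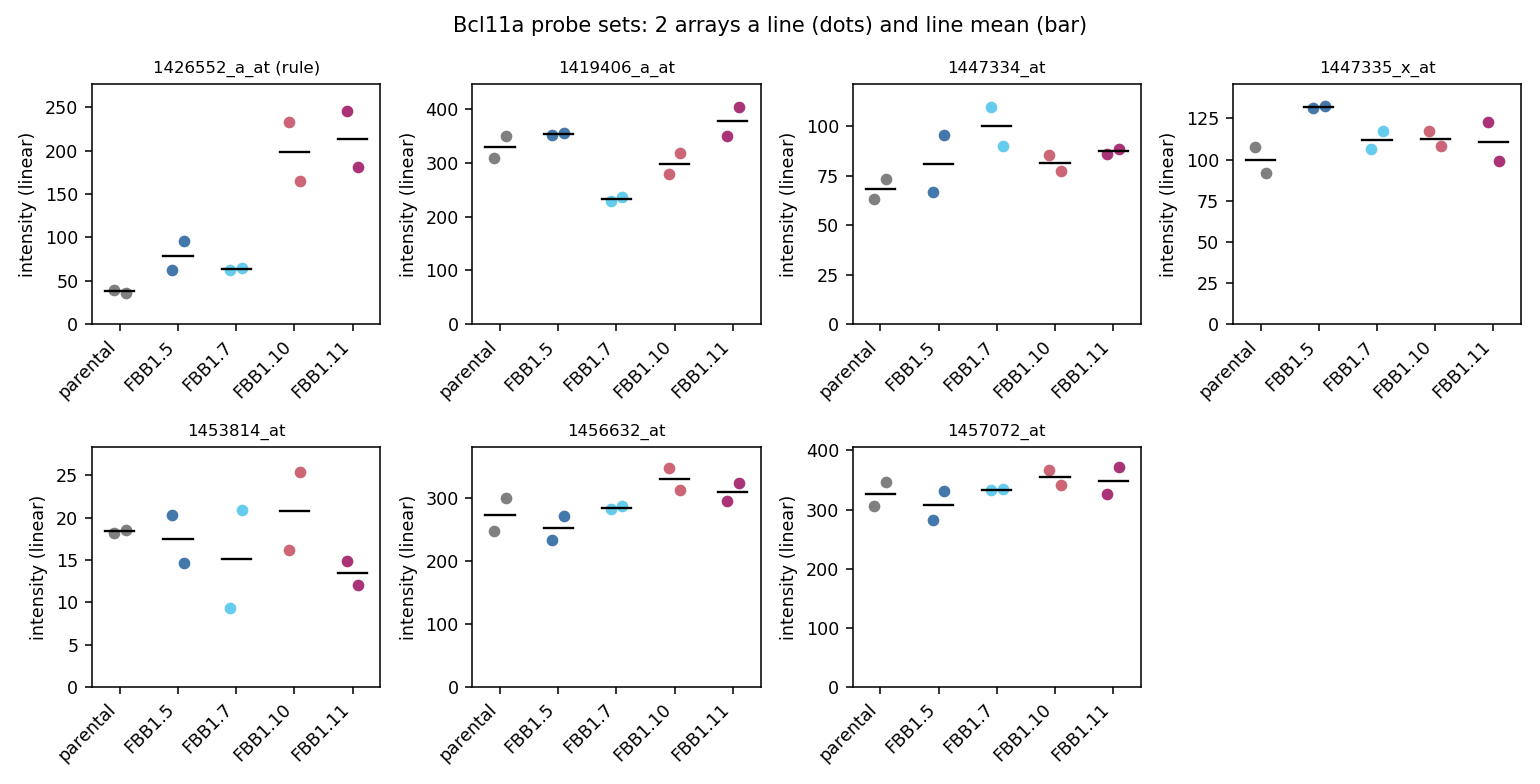
Linear intensity of the 7 Bcl11a probe sets, with 1 point for each of the 10 arrays and a bar at each line mean. On the probe set that chose the groups the means of FBB1.10 and FBB1.11, 199 and 213, stand above those of FBB1.5 and FBB1.7, 79.0 and 63.7, while on the other 6 the groups differ by -0.11 to 0.24 on the log2 scale.

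The cells carried erythroid transcripts in both groups. Of 6 erythroid markers with a probe set, 5 were above the intensity filter, and their summed intensity was 6726 to 7896 on the high arrays and 6288 to 7608 on the low arrays. Slc4a1, the anion exchanger of mature red cells, was near 0 at 4.4 to 13.4. Markers of granulocytes and macrophages summed to 611.8 to 688.7 in the high and 572 to 676.6 in the low group, and B, T and fibroblast sums overlapped between the groups as well. Megakaryocyte markers summed to 419 to 433 on the high arrays and 448.8 to 531.8 on the low arrays, without overlap. Array medians ran from 29.6 to 31.6. The ratio of 3' to 5' signal for actin rises when RNA is partly degraded. It was 1.47 on the first FBB1.5 array and 1.06 to 1.17 on the other 7 subclone arrays. On the parental arrays it was 1.22 and 1.8, the latter the highest of all arrays, so parental levels are less certain.

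Few transcripts separated the groups, and most of the differences were small. With each line represented by its mean, limma with Benjamini-Hochberg adjustment called 219 of 24638 probe sets, or 0.889%, at an adjusted p under 0.05. Of these 85 (0.345%) were higher and 134 (0.544%) lower in the high group. The median size of a called difference was 0.39 on the log2 scale, 31 reached 1.5-fold and 2 exceeded a log2 difference of 1. In 143 of the called probe sets (0.58% of those tested) both high lines lay on the same side of both low lines. Called or not, 27.8% of all tested genes had this order. In the remaining 76 the lines of the groups interleaved. The arrays of the groups did not overlap in 100 of the called probe sets, and in 956 (3.88%) of all those tested, with the high arrays above in 522 (2.12%) and below in 434 (1.76%).

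The count depended on single arrays. It was 56 without the first FBB1.11 array and 80 without the second FBB1.7 array. Leaving out the first FBB1.7 array gave 124, the first and second FBB1.10 arrays 126 and 107, and the second FBB1.11 array 126. Without the first FBB1.5 array, the subclone array with the highest actin ratio, 165 were called.

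When the subclone was taken as the unit that varies, as a random block in limma with an estimated correlation of 0.249, 0 probe sets passed (0%). By Benjamini-Hochberg adjustment the smallest p was 0.36. An unadjusted p under 0.05 was found for 847 probe sets, where an even spread of p-values would give 1230. Without regard to line, limma called 0 as well, with 1489 at an unadjusted p under 0.05. With 2 lines against 2, an exact permutation test of a single value over lines cannot go below a two-sided p of 0.333. The calls given here thus describe these 4 clones and were not shown to extend to other clones with high or low signal.

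The difference between the groups was of the size of the differences inside them. FBB1.10 and FBB1.11, both high, differed in 148 probe sets (0.601%), of which 103 were higher in FBB1.10. FBB1.5 and FBB1.7, both low, differed in 2887 (11.7%), of which 1684 were higher in FBB1.5. These contrasts come from the same limma fit. Each compares 2 arrays with 2, where high against low compares 4 with 4, so a log2 difference of a given size is called less readily within a group than between the groups. Of the sum of squares between lines, array noise included, high against low took 25.4%, FBB1.10 against FBB1.11 23.5% and FBB1.5 against FBB1.7 51.1%. Of the 219 called probe sets, 128 also differed between the low lines and 19 between the high lines. Across genes, Pearson's r was 0.968 to 0.977 between arrays of the low lines and 0.976 to 0.987 between a high and a low array, so the low lines resembled each other no more than they resembled the high lines. The high lines resembled each other more, with 0.984 to 0.987 between them, against 0.984 to 0.989 between arrays of the same line.

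Of the genes tested through 1 probe set each, 115 of 12365 (0.93%) were called, 44 (0.356%) higher and 71 (0.574%) lower in the high group. Of 24 genes chosen among them for a difference shared by all 4 pairs of a high and a low line, 7 stayed called when any 1 array was left out. These were Insig1, Fdft1, Nedd8, Prkar2b and Ndrg1, which were lower in the high group, and Parm1 and Rfx5, which were higher. The first 4 also stayed called when any 1 line was left out. The 24 were picked by these same line differences, so neither this nor a lack of overlap between their arrays is separate support. Without the intensity trend in the variance none of the 24 was called. With no filter on intensity Insig1 (limma adjusted p = 0.066), Ndrg1 (limma adjusted p = 0.074) and Prkar2b (limma adjusted p = 0.090) lost the call, and with a 1.5-fold minimum Nedd8, Prkar2b, Parm1 and Rfx5 did.

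The promoters of 4 genes that were lower in the high group are shown, because Insig1 and Nedd8 were among the 4 that stayed called without any 1 array or line, and Med28 and Apex1 held the core sequence known for BCL11A, TGACCA or its reverse complement, in capitals. Each runs from 250 bases before to 50 after an annotated start, on the gene's own strand, from RefSeq on GRCm38.p6. The Insig1 window is chr5:28071162-28071461 on the plus strand and that of Med28 is chr5:45519979-45520278 on the plus strand. The Nedd8 window is chr14:55671831-55672130 on the minus strand and that of Apex1 is chr14:50924699-50924998 on the plus strand.
Insig1: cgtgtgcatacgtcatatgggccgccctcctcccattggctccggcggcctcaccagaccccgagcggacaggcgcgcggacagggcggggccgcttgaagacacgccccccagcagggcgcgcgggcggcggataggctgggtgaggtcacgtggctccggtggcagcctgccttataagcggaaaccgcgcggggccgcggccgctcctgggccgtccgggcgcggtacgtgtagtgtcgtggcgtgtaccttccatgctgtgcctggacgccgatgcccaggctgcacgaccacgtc
Med28: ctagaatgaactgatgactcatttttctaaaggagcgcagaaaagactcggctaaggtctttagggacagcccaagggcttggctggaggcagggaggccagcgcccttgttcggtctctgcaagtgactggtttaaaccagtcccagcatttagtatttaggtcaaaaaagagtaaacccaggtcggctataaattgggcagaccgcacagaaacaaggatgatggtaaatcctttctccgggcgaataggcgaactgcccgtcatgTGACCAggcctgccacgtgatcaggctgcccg
Nedd8: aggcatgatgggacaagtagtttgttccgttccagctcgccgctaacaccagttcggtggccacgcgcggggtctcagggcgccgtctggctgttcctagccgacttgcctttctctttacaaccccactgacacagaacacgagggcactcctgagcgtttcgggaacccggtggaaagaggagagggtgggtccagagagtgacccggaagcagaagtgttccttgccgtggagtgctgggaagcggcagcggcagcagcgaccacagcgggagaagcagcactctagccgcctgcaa
Apex1: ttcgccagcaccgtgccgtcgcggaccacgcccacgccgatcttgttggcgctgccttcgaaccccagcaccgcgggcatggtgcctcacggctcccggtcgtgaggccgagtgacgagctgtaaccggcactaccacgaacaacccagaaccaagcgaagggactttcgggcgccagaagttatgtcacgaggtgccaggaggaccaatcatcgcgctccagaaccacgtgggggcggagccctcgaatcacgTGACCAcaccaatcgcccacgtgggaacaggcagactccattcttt

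Insig1 and Nedd8 held no match in these windows. Searched on both strands, TGACCA was present in 13.6% of the 32851 promoters of all genes and in 1341 of 9977 tested genes with a promoter (13.4%). It was present in 6 of 37 genes higher in the high group (16.2%) and in 6 of 54 lower genes (11.1%), both close to the tested genes as a whole. A match is a description of the letters, not of binding.

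Insig1 was lower in the high group. The FBB1.10 arrays read 300.4 and 266.5 and the FBB1.11 arrays 249.6 and 307.2, while FBB1.5 read 416.4 and 509.1 and FBB1.7 390.4 and 438.1. All 4 high arrays lay below all 4 low arrays, and the parental arrays, at 329.6 and 371.8, lay between them. The log2 difference was -0.61 (SE 0.088, limma adjusted p = 0.0045).

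Fdft1 encodes squalene synthase, the first enzyme committed to sterols. The FBB1.10 arrays read 133.6 and 131.9 and the FBB1.11 arrays 121 and 121.2, while FBB1.5 read 222.7 and 252 and FBB1.7 read 180.8 and 163.6. The groups did not overlap, and the parental arrays, at 114.9 and 132.4, lay with the high lines. The log2 difference was -0.61 (SE 0.081, limma adjusted p = 0.0025), and 2 of its 4 probe sets were called.

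Nedd8, a small ubiquitin-like protein that activates cullin ubiquitin ligases, was lower as well. The high arrays read 1223, 1324, 1136 and 1356, FBB1.5 read 1950 and 2034, and FBB1.7 read 1729 and 1673. The groups stood clear of each other, with the parental arrays, 1126 and 1142, at the lower end of the high ones. High minus low was -0.54 on the log2 scale (SE 0.058, limma adjusted p = 0.00031).

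Prkar2b, a regulatory subunit of protein kinase A, read 369.2, 293.1, 362.2 and 351.3 on the high arrays, while the FBB1.5 arrays read 584.9 and 494.1 and the FBB1.7 arrays 453.2 and 455.6. The groups did not overlap, and the parental arrays at 360.1 and 390 were close to the high lines. The log2 difference was -0.51 (SE 0.082, limma adjusted p = 0.0085).

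Ndrg1, which responds to stress and hypoxia, was lowest in the high lines and highest in the parental line. The parental arrays read 866.3 and 839.8, the FBB1.5 arrays 791.8 and 633.2 and the FBB1.7 arrays 592.8 and 537.1. The FBB1.10 arrays read 500.1 and 352.6 and the FBB1.11 arrays 341.7 and 350.4. The subclone groups did not overlap, and the log2 difference was -0.71 (SE 0.097, limma adjusted p = 0.0031). Of its 5 probe sets, 4 were called.

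Further genes fell in the high group by smaller steps. Apex1, the main endonuclease of base excision repair, differed by -0.44 (limma adjusted p = 0.012), with all 3 of its probe sets called. Gnl3, a nucleolar GTP-binding protein, differed by -0.38, Idh1, the cytosolic isocitrate dehydrogenase, by -0.43 and Hebp1, a heme-binding protein, by -0.49. Med28, a Mediator subunit, differed by -0.30, the lipid phosphatase Pip4p1 by -0.45 and Ppdpf by -0.49. Their limma adjusted p-values with Benjamini-Hochberg ran from 0.0074 to 0.033. Of these only the arrays of Ppdpf overlapped between the groups. The genes were picked for line differences on one side, which favors such gaps. Among all tested probe sets the high arrays lay wholly below in 1.76%. The other Med28 probe set, with group means of 76.3 and 82.3, gave -0.064 (limma adjusted p = 0.86).

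Parm1, a mucin-like membrane protein, was higher in the high group. The FBB1.10 arrays read 345 and 362.4 and the FBB1.11 arrays 389.3 and 400.1, while FBB1.5 read 327.9 and 303.1 and FBB1.7 read 218.9 and 203.9. The groups did not overlap, and the parental arrays, at 433.4 and 518.3, lay above all subclones. The log2 difference was 0.51 (SE 0.072, limma adjusted p = 0.0038), and both probe sets were called.

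Egln1 encodes the oxygen-sensing prolyl hydroxylase that marks HIF for destruction. It read 745.9, 726.9, 814.5 and 801.6 on the high arrays, while FBB1.5 read 661.6 and 557 and FBB1.7 read 568.6 and 558. The groups did not overlap, and the parental arrays, 779.4 and 758.4, lay among the high ones. High minus low was 0.39 on the log2 scale (SE 0.065, limma adjusted p = 0.0096).

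Cda, the cytidine deaminase of the pyrimidine salvage pathway, was one of the genes in which the order of the lines was parental, low, high. The parental arrays read 70.4 and 80.3, FBB1.5 108.8 and 108.7, FBB1.7 127.2 and 135.8, FBB1.10 148.8 and 176.4 and FBB1.11 166.2 and 196.6. The 3 sets of arrays did not overlap, and high exceeded low by 0.46 (SE 0.088, limma adjusted p = 0.020).

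Mcl1, the short-lived survival protein of the BCL2 family, read 2166, 2096, 2255 and 2064 on the high arrays and 1731 to 1842 on the low arrays. The groups did not overlap. The log2 difference was 0.25 (SE 0.046, limma adjusted p = 0.019), and 4 of its 6 probe sets were called.

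Rfx5, a factor of MHC class II promoters, rose by 0.52 (limma adjusted p = 0.0045), but its arrays overlapped, with 254.2 and 283.2 in FBB1.5 against 446.9 and 397.4 in FBB1.7 and 443.9 to 522.7 in the high lines. Rac2 rose by 0.25 and the corepressor Irf2bp2 by 0.34. Mgat2 of N-glycan assembly rose by 0.39 and Atg4d, a protease of autophagy, by 0.35. Dpy19l1, Kctd9 and Atpsckmt, a mitochondrial methyltransferase, rose by 0.35, 0.42 and 0.46. The limma adjusted p-values of these 7 after Rfx5 ran from 0.012 to 0.039. The other Dpy19l1 probe set, with group means of 273.1 and 265.8, gave 0.053 (limma adjusted p = 0.88).

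**Figure D2:**
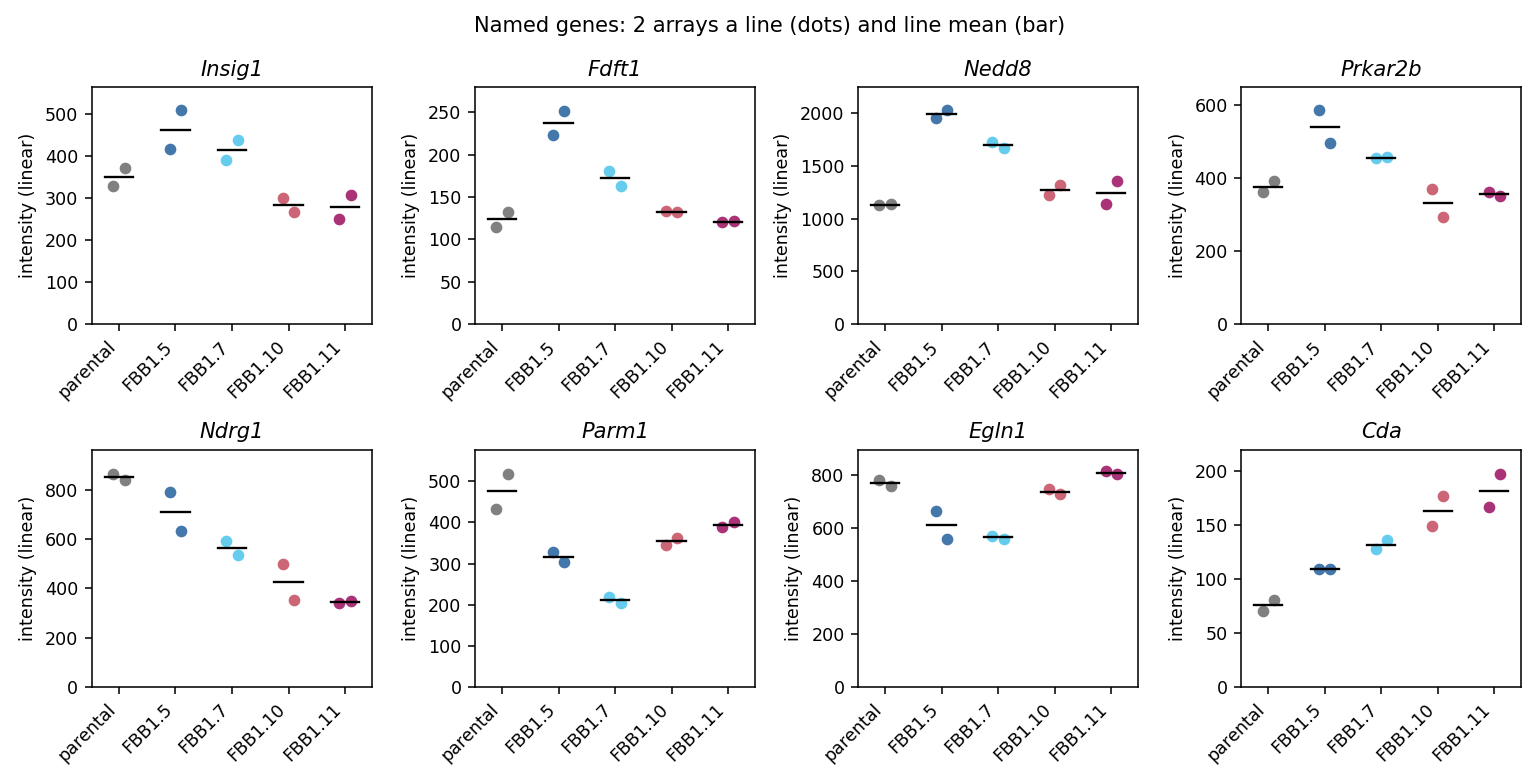
Linear intensity of 8 genes on each array, with the parental line at the left and a bar at each line mean. Insig1, Fdft1, Nedd8, Prkar2b and Ndrg1 are lower and Parm1, Egln1 and Cda higher in FBB1.10 and FBB1.11 than in FBB1.5 and FBB1.7, and the parental arrays of Fdft1, Nedd8, Prkar2b and Egln1 lie near the high lines.

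Some large differences rested on 1 probe set of a gene. They were picked after their values were seen. For Chd4, the ATPase of the NuRD complex, 1 probe set read 169 and 178.7 in FBB1.10 and 203.4 and 208.8 in FBB1.11, against 95.4 to 125.4 on the low arrays. It rose by 0.71 (limma adjusted p = 0.0029), whereas the brightest Chd4 probe set gave 0.059 (limma adjusted p = 0.83). For Phf3, 1 probe set read 292.2 to 358.4 on the high and 178.4 to 223.3 on the low arrays, a rise of 0.68 (limma adjusted p = 0.00032), while the brightest probe set gave 0.054. Purb had 2 of 5 probe sets called, at 0.40 and 0.38, and its brightest gave 0.30 (limma adjusted p = 0.22).

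The parental line lay nearer the high lines than the low lines in most called genes. It had no part in choosing the groups or in the test. Of 71 genes lower in the high group, the parental mean lay nearer the high lines in 55 (77.5%), and of 44 higher genes in 26 (59.1%). Over all tested genes the share was 57%, close to that of the higher genes. Of the 71 lower genes, 49 lay on chromosomes 14 or 5. The brighter chromosome 14 genes had a median of 0.42 over the parental line in FBB1.5, and of -0.035 to 0.018 in the other subclones. A rising or falling order of parental, low and high, as the Bcl11a signal itself has, was seen in 8 of 44 higher genes (18.2%) and 8 of 71 lower genes (11.3%). Over all tested genes on each side it was seen in 33.6% and 31.4%. Called genes were picked for a gap between the groups, where a parental value can fall, so these shares are not like for like. Cwh43, picked after its values were seen as the gene with the largest called difference, had a mean of 138 in FBB1.5, 27.7 in FBB1.7, 17.9 and 18.7 in the high lines and 21.9 in the parental line, so FBB1.5 alone stood apart.

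Many of the lower genes lay on chromosome 14. Of 180 called probe sets with a chromosome, 55 (30.6%) were on it, where 3.41% of tested probe sets lie, and 54 of them were lower in the high group. As genes, 38 of 430 tested there were called (8.84%), 37 of them lower, among them Nedd8, Fdft1, Apex1, Pip4p1 and Gnl3. Chromosome 5, with Insig1 and Med28, held 13 called genes of 789 (1.65%), 12 of them lower. Together these chromosomes held 49 of the 71 lower genes.

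As a median, the chromosome 14 difference was seen against FBB1.5 and not against FBB1.7. Over 141 genes there with a mean intensity over 200, 126 lay below 0 in high minus low, with a median of -0.19. The medians against FBB1.5 were -0.38 for FBB1.10 and -0.44 for FBB1.11, whereas against FBB1.7 they were 0.061 and 0.0036. Set against the parental arrays, the same genes had a median of 0.42 in FBB1.5 and of -0.035, 0.018 and -0.028 in the other subclones in order of their number. Of the 55 called probe sets there, 29 had both high lines on the same side of both low lines, those of Nedd8 and Fdft1 among them. With the chromosome 14 genes left out of the test, 131 probe sets were called, of which 52.7% were higher, against 38.8% of the 219.

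**Figure D3:**
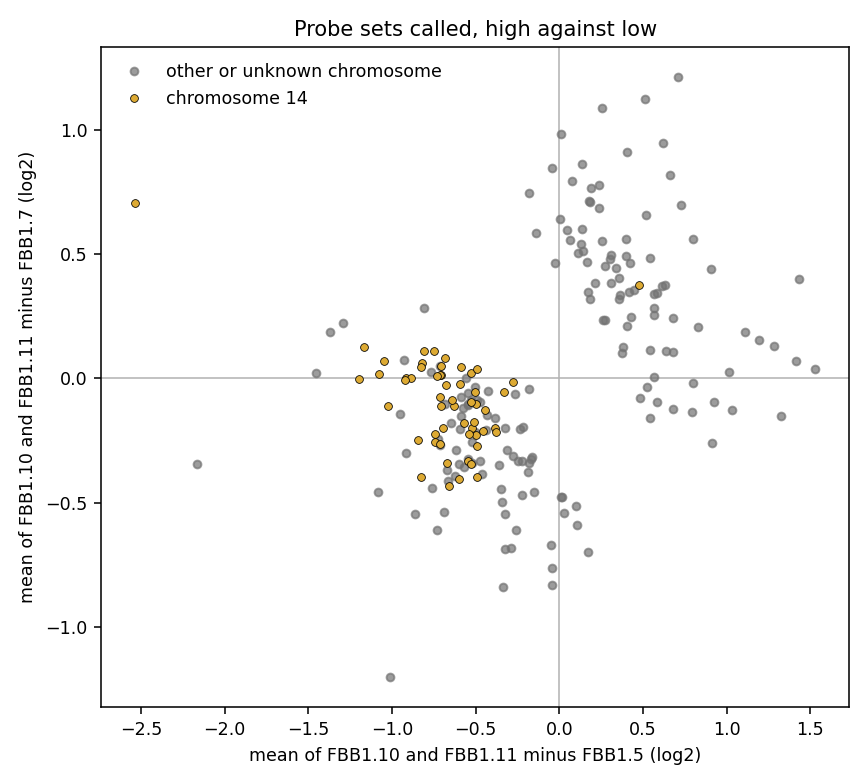
Called probe sets, with the mean of the high lines minus FBB1.5 on the x axis and minus FBB1.7 on the y axis, both as log2 differences, and probe sets of chromosome 14 marked. Those of chromosome 14 lie mostly to the left of 0, that is lower than FBB1.5, and are spread over both sides of 0 on the y axis.

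Gene lists were described by their counts and medians through the brightest probe set of each gene, beside all tested genes, whose median was 0.0058 with 48.2% below 0. The 37 lists held 616 measured genes, of which 16 were called, beside 115 of all 12365 tested genes (0.93%). The lists were written with earlier results of these data known, so their counts of calls cannot be read as enrichment.

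Of 24 genes of sterol and fatty acid synthesis, 20 lay below 0 in high minus low and the median was -0.22. Fdft1, Insig1, Fdps and Scd1 were called lower and none higher. Fdps, which makes farnesyl diphosphate, differed by -0.49 (limma adjusted p = 0.017) and Scd1, the stearoyl-CoA desaturase, by -0.36 (limma adjusted p = 0.046). The Fdps arrays overlapped between the groups, and its call was lost without FBB1.7, without FBB1.11 or without any 1 of 3 arrays. In Scd1 only FBB1.7 stood apart, with a line mean of 952.2, against 618.1 in FBB1.5 and 620 and 569.5 in the high lines. The median of the list stood below FBB1.5 more than below FBB1.7. Its median was -0.38 and -0.27 for FBB1.10 and FBB1.11 against FBB1.5, and -0.050 and -0.060 against FBB1.7. Elovl6, the fatty acid elongase, had a log2 difference of -0.93 that did not pass (limma adjusted p = 0.18), since it read 47.2 and 175 on the FBB1.5 arrays and 86.6 and 220.5 on those of FBB1.7. A binding core of the sterol-responsive factors, TCACCCCAC, searched on both strands, was found in the promoter of 1 of 18 genes of the list with a promoter, Hmgcs1, and in 0.614% of all genes. The called genes Fdft1, Fdps and Scd1 had no promoter sequence and were not searched.

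All 28 measured genes of DNA replication, the MCM helicase and its partners, lay below 0, by -0.25 to -0.013, with a median of -0.13, but 0 passed the test. Mcm4 had -0.25 (limma adjusted p = 0.10) and Mcm6 -0.21 (limma adjusted p = 0.13). Here the larger gap was to FBB1.7, with medians of -0.21 and -0.18, and the smaller to FBB1.5, with -0.065 and -0.042. In 11 of the 28 both high lines lay below both low lines, where 12.7% of all tested genes did so.

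Proteasome subunits and chaperones of the endoplasmic reticulum split the low lines. Of 28 proteasome genes 23 lay below 0, with a median of -0.12, and Psmb5 and Psme1, both on chromosome 14, were called lower. The median against FBB1.5 was 0.095 for FBB1.10 and 0.018 for FBB1.11, and against FBB1.7 it was -0.20 and -0.31. Of 22 genes of folding in the endoplasmic reticulum 18 lay above 0, with a median of 0.0995, and the chaperones Hspa5, at 0.28 (limma adjusted p = 0.043), and Calr, at 0.19 (limma adjusted p = 0.033), were called higher. The high lines did not share this. Hspa5 read 1443 and 1672 in FBB1.10 but 1007 and 1119 in FBB1.11, while FBB1.5 read 827 and 764.7 and FBB1.7 read 1425 and 1380. FBB1.11 thus lay between the low lines. Without FBB1.5 the differences turned to -0.13 for Hspa5, -0.16 for Calr and 0.060 for Psme1, and without FBB1.10 that of Calr to -0.053. The folding list's median then was -0.073 without FBB1.5, and that of the proteasome list was 0.069 without FBB1.7.

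**Figure D4:**
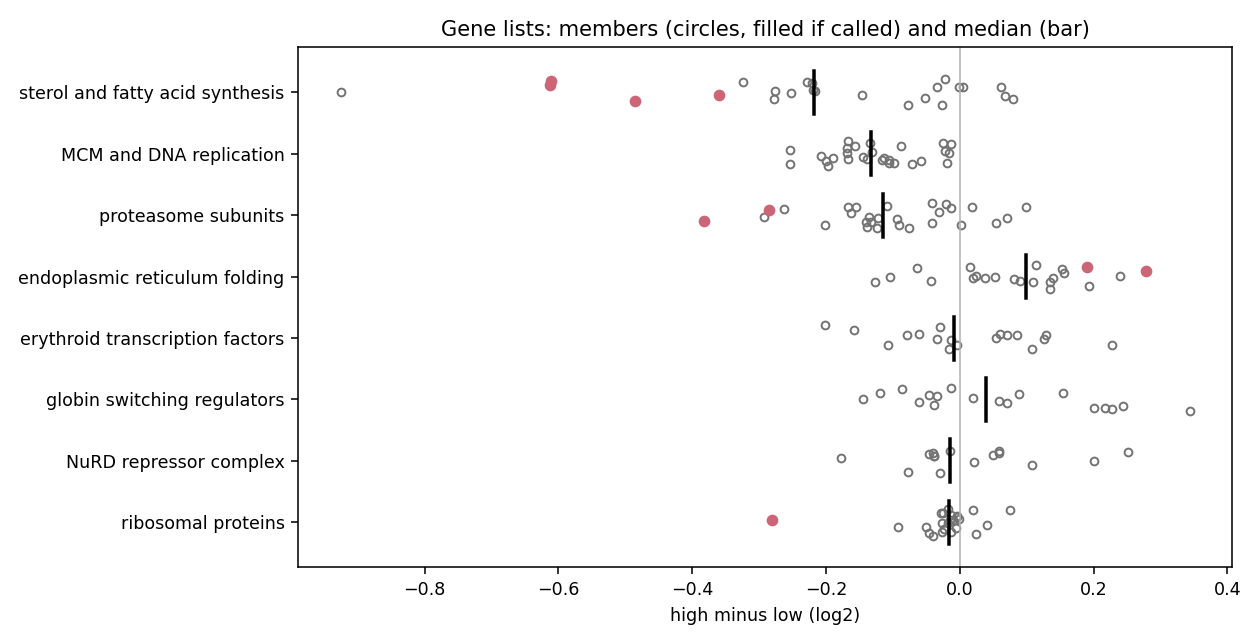
Log2 differences, high minus low, of the measured members of 8 gene lists, 1 point a gene, filled where called, with a bar at the median. The replication genes lie wholly below 0 without a call, sterol and fatty acid synthesis has a median of -0.22 with 4 calls, and the erythroid lists centre near 0.

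The tested genes of red cell identity did not separate the groups by the test. Of 13 listed globins only 3 had a tested probe set of their own, and none of these was called. The rest of the globins are therefore not covered. Group means of Hba-x were 61.4 in the high and 55.4 in the low group. Those of Hbb-b2 were 38.9 and 40.3, little above the table median of 30.5. Hba-a2, an adult alpha globin, had -0.31 (limma adjusted p = 0.50), Hba-x, the embryonic zeta globin, 0.13 (limma adjusted p = 0.70), and Hbb-b2, an adult beta globin, -0.032 (limma adjusted p = 0.96). None of 13 heme synthesis genes and none of 18 erythroid transcription factors was called, with medians of -0.029 and -0.0084. Klf1, the erythroid activator of adult beta globin, came nearest, at 0.23 (limma adjusted p = 0.070), and its arrays did not overlap. It was called after quantile normalization, at 0.24 (limma adjusted p = 0.049), and without FBB1.10, at 0.31 (limma adjusted p = 0.041). Gata1 had 0.13 (limma adjusted p = 0.20).

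None of 18 regulators of globin switching was called through its brightest probe set, with a median of 0.040. Nfix had 0.34 (limma adjusted p = 0.067), while another of its 5 probe sets was called, at 0.46 (limma adjusted p = 0.037). Without FBB1.5 Nfix was called at 0.57 and Rcor1 at 0.37, and Nfix also without FBB1.10 and with a filter at a higher intensity. With all 4 lines Rcor1, the CoREST corepressor, had 0.24 (limma adjusted p = 0.075) and Nr2c2, a nuclear receptor of the globin promoters, 0.22 (limma adjusted p = 0.24). None of 15 NuRD subunits was called through its brightest probe set, with a median of -0.014, and Chd3 had 0.25 (limma adjusted p = 0.20), which became 0.47 and a call without FBB1.7 (limma adjusted p = 0.018).

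Of 24 ribosomal genes only Rps27l was called through its brightest probe set, at -0.28 (limma adjusted p = 0.0087), with all 3 of its probe sets. Among 9 mast cell genes Srgn, the granule proteoglycan, was called higher at 0.40 (limma adjusted p = 0.017). Its line means were 1364 in FBB1.11, 937.5 in FBB1.10, 917.6 in FBB1.5 and 800.5 in FBB1.7. Without FBB1.11 the difference was 0.13 and not called, and the call was also lost without FBB1.7 or without any 1 of 4 arrays. In the same list the proteases Gzmb, at -0.49 (limma adjusted p = 0.029), and Cma1, at -0.92 (limma adjusted p = 0.0074), both on chromosome 14, were called lower. The Gzmb arrays overlapped between the groups, and its call was lost without FBB1.5, without FBB1.11 or without any 1 of 5 arrays. For Cma1 the FBB1.5 arrays read 571 and 322.6 and the FBB1.7 arrays 33.0 and 29.5, with 89.2, 76.2, 36.2 and 53.1 in the high lines, so the high lines lay between the low ones. The mast cell markers summed to 1699 to 2595 on the high arrays and 832.5 to 6267 on the low arrays, and their part in these calls was not tested. Thy1, a surface marker of T cells and fibroblasts, was called higher at 0.59 (limma adjusted p = 0.0018) with 824.1 to 890.7 in the high lines, while FBB1.5 read 373.6 and 287.1 and FBB1.7 read 961.7 and 917.9. The high lines again lay between the low ones. Without FBB1.5 the difference of Cma1 turned to 0.71 and that of Thy1 to -0.15.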

How the data were processed

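The authors deposited probe set values of 10 arrays on a linear intensity scale, and their summarisation, background correction and scaling are not given in the sources used here. Per the labels' protocols, oligo-dT-primed cDNA was transcribed into biotin-labelled cRNA and stained with a streptavidin dye. Of 45101 probe sets, 64 controls were set aside. The log2 of intensity + 16 was used, which understates the change of dim genes. Tests were limited to probe sets above the table median, 30.5, on at least 2 of the 8 subclone arrays, which left 24638 beside 6 of Bcl11a. The platform annotation gave 1 symbol for 34945 probe sets, several for 932 and none for 9160, and 34741 matched a RefSeq gene of GRCm38.p6. Groups come from the titles and, for high and low, from the Bcl11a threshold. The number of arrays limits the precision.

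Tests used limma 3.58.1 with statmod 1.5.0 in R 4.3.3 (1 mean a line, eBayes with an intensity trend, Benjamini-Hochberg over all tested probe sets at 0.05), and figures Python 3.11.15 with matplotlib 3.10.9. The spread had 4 residual degrees of freedom, and the prior added 11.7. Line was also fitted as a random block (duplicateCorrelation). The functions were tested on simulated data of 24644 probe sets. With no variation between lines, the test on line means made 13 false calls and the random block 28. With lines that varied, the test on line means made 318 false calls and the random block 31. The 318 exceeds the 219 probe sets called for high against low. Of 100 probe sets changed by a log2 difference of 0.5 there, the 2 tests recovered 83 and 68. The size of the simulated line variation is not stated here. A gene was represented by its brightest probe set. The rule named the Bcl11a probe sets, the 12 highest and 12 lowest called genes by the smallest of their 4 line-pair differences with a mean over 100, up to 3 called genes of each list, and up to 4 of the globin, erythroid, switching and NuRD lists. Chd4, Phf3, Purb, Suz12, Cwh43, Mcm6 and Elovl6 were named after their values were seen, as were the chromosome counts, Scd1 and Hmgcs1. The members and lists were chosen with earlier results of these data known. Alternatives covered the pseudocount, normalization, filter, variance model, replicate block, a minimum fold, chromosome 14, the parental arrays, and each array or line left out.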

Additional observations from a re-analysis of the deposited data

Results flagged for a closer look

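Within 4-array groups of the named genes, 1 array stood far from the other 3 in 7 of 96 groups looked at, and chance gives about 1 in 20. Egln1 read 661.6 on the first FBB1.5 array, against 557 to 568.6 on the other low arrays. Kctd9 read 171.8 on that array, against 201.7 to 207.1. Ndrg1 read 500.1 on the first FBB1.10 array, against 341.7 to 352.6. Pip4p1 read 324.6 on the second FBB1.7 array, against 373 to 382.4. Hbb-b2 read 48.98 on the second FBB1.11 array, against 34.87 to 35.92. On the second FBB1.5 array Klf1 read 930.9, against 1010 to 1024, and Nr2c2 read 258.4, against 280.6 to 284.8.

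The lines of the groups interleaved in 76 of the 219 called probe sets. Only the named genes were looked at here. In 5 of those that were called, the low lines differed so far that the mean of the high lines lay between them. The log2 difference of FBB1.5 minus FBB1.7 was 3.24 for Cma1 (limma adjusted p = 2.3e-07), -1.48 for Thy1 (limma adjusted p = 1.4e-06), -0.70 for Calr (limma adjusted p = 2.8e-06), -0.81 for Hspa5 (limma adjusted p = 2.8e-05) and 0.88 for Psme1 (limma adjusted p = 5.3e-05). The high against low call of each therefore averages differences of opposite sign against FBB1.5 and FBB1.7. Both high lines lay between the low lines in Cma1 and Thy1, while in Calr and Hspa5 FBB1.10 lay above both low lines and in Psme1 below both.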

How the results depend on the processing

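The 219 calls of high against low became 1 without the intensity trend in the variance, 23 with no filter, 95 with the parental arrays in the fit, 31 with a 1.5-fold minimum, 131 without chromosome 14 genes and 0 with line ignored. Leaving out 1 array gave 56 to 226. Without FBB1.5, FBB1.7 or FBB1.11 the counts were 1103, 963 and 70. With line as a random block the count was 0 whichever array was left out, but 501 without FBB1.5, 799 without FBB1.7 and 1 without FBB1.10, where 1 line is left in a group and the spread between lines comes from the other group alone. FBB1.10 against FBB1.11, 148 calls, gave 7 with no filter, 4 without the trend, 67 with the parental arrays, 78 with the fold minimum and 19 to 223 without 1 array. FBB1.5 against FBB1.7, 2887 calls, gave 1649, 1388 and 1093 with no filter, no trend and the fold minimum, and 1235 to 2815 without 1 array. The 16 called members of lists became 2 with no filter, 0 without the trend, 9 with the parental arrays, 5 with the fold minimum, 9 without chromosome 14 genes, 6 to 17 without 1 array, and 87 without FBB1.5, 68 without FBB1.7, 30 without FBB1.10 and 8 without FBB1.11.

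Direction was lost in some genes. Hbb-b2 ranged from -0.115 to 0.051 without 1 array, above 0 without the second FBB1.5 (0.048), first FBB1.7 (0.049) or first FBB1.11 array, and gave 0.060 without FBB1.5 and 0.054 without FBB1.10. Without FBB1.5, Hba-x gave -0.073, Gatad2a 0.082, Cma1 0.71, Thy1 -0.15, Calr -0.16, Hspa5 -0.13 and Psme1 0.060. Without FBB1.7, Lyl1 gave 0.14, Cbfa2t3 -0.081 and Mta1 -0.089. Without FBB1.10, Hba-a2 gave 0.17 and Calr -0.053. The cause was not tested. The median of the sterol list was -0.073 without FBB1.5 and -0.32 without FBB1.7, that of replication -0.20 and -0.052, that of the proteasome -0.27 and 0.069, and that of endoplasmic reticulum folding -0.073 and 0.20.

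Arrays that share a replicate number did not deviate together, with correlations of their deviations of -0.159 to 0.076 over pairs of lines. Such correlations cannot tell whether these arrays were paired. With the replicate number as a block, 212 probe sets were called.

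With 2 arrays a line, the number of arrays limits every value. The groups hold 2 clones each, so a difference tied to the Bcl11a signal and a difference between clones cannot be told apart.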

Other observations

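Megakaryocytes, which make platelets, arise from a precursor shared with red cells. Of 16 megakaryocyte and platelet genes measured, 13 lay below 0 in high minus low, with a median of -0.12, and 0 were called by limma with Benjamini-Hochberg adjustment. The gap was mostly to FBB1.5, with medians of -0.17 for FBB1.10 and -0.15 for FBB1.11. Against FBB1.7 the medians were -0.013 and -0.020. Suz12, a core subunit of the Polycomb repressive complex, had 1 probe set called higher, at 0.34 (limma adjusted p = 0.040), and was picked after its value was seen. Of 25 genes of glycolysis and the low-oxygen response, Egln1 was called higher and Ndrg1 lower.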
